A study of Homo sapiens with 52 samples.

Results

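Levels of 10 mitotic genes were followed across HEK293T libraries that differ in MCTS1, DENR or eIF2D. The genes were chosen by name, as a readout of the cell cycle, and each was read from 1 transcript identifier out of the 226882 in the deposited count table. Cyclin B1 was CCNB1 (ENST00000256442), cyclin A2 was CCNA2 (ENST00000274026) and their kinase was CDK1 (ENST00000395284). The other kinases were PLK1 (ENST00000300093) and BUB1 (ENST00000302759). The checkpoint protein BubR1 was BUB1B (ENST00000287598), and CDC20 (ENST00000310955) activates the anaphase-promoting complex. The last members were the kinesin KIF11 (ENST00000260731), the topoisomerase TOP2A (ENST00000423485) and the proliferation marker MKI67 (ENST00000368654). All 10 were found and had counts in all 42 libraries analysed. Between 1 and 9 other identifiers followed each member closely from replicate to replicate, so a member's count may hold reads that other transcripts of its gene share.

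HEK293T is a transformed line from human embryonic kidney that divides continuously in culture. MCTS1 and DENR form a dimer that acts on the small (40S) ribosomal subunit, and eIF2D carries related domains in a single protein. RNA-seq and Ribo-seq came from MCTS1 KO #1 and #2 with wild type (WT) cells, and from siDENR #1 and #2 with siControl. TCP-seq, which captures fragments held by ribosomal complexes, came from eIF2D KO #1 and #2, MCTS1 KO #1 and #2, and WT. In 40S Sel-TCP-seq, small-subunit complexes were pulled out through V5-tagged eIF2D, MCTS1 or DENR. The labels do not say whether a numbered KO is 1 clone, what a numbered siRNA is, how long siRNAs acted, or whether the tagged proteins were made in WT or KO cells. Each group had 2 libraries, except WT TCP-seq with 4, of which libraries 1 and 2 were set against the eIF2D KO and libraries 3 and 4 against the MCTS1 KO, after the run of their library numbers.

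Entry into mitosis is driven by CDK1 bound to cyclin B1, after cyclin A2 has brought cells through S phase and G2. BUB1 and BubR1 hold back CDC20 until chromosomes are attached, and CDC20 then turns on the ligase that degrades cyclin B1 and ends mitosis. The mRNAs of these genes are made mainly in G2 and mitosis, so in a dividing culture their levels follow both the share of cells in those phases and the amount of mRNA per cell. In these bulk libraries the number of cells in a phase and the RNA per cell cannot be told apart.

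RNA-seq libraries held between 76967099 and 301214608 counts and Ribo-seq libraries between 16370112 and 193940882. TCP-seq libraries held between 1609303 and 5053637, and libraries of selected complexes between 356019 and 2582917. A member had 994 to 19123 counts in an RNA-seq library and 262 to 20882 in a Ribo-seq library. In TCP-seq it had 7 to 209 counts and in Sel-TCP-seq 1 to 168, so the precision there is far lower. Levels below are in CPM, the count scaled to the library total. No transcript lengths were used, so levels are compared between libraries and not between genes. The files pair no identifiers with gene names, so neither the loss of MCTS1, DENR or eIF2D nor the markers of the cell line were checked here. Whether replicate libraries were grown apart is not labelled. A p-value here therefore reflects how far these libraries scatter, which may be technical. For a typical transcript it draws mostly on the scatter of all transcripts of similar level, and less on that transcript's own counts.

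In unperturbed cells most of the mitotic mRNAs had more ribosome footprints for their mRNA level than the median of all transcripts with enough counts. Coding and noncoding transcripts were not separated in that median. CDK1 stood at 50.3 and 44.6 CPM in WT Ribo-seq, against 19.9 and 21.0 CPM in WT RNA-seq, a log2 ratio of the means of 1.21. That ratio was above the ratios of 96.8% of 103388 transcripts, where the median transcript had -0.34. The median of the 10 members was 0.51, and TOP2A (0.91), CCNB1 (0.90) and CDC20 (0.72) followed CDK1. MKI67 was the lowest, at 25.6 and 21.4 CPM in WT Ribo-seq, against 29.0 and 32.9 CPM in WT RNA-seq, a log2 ratio of -0.40. The siControl libraries gave the same highest and lowest members, with 1.44 for CDK1 and -0.66 for MKI67. These ratios are a description of pooled group means and depend on how each assay samples an mRNA.

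TCP-seq gave a different picture of the same mRNAs. The median log2 ratio of WT TCP-seq over WT Ribo-seq was -1.0 for the 10 members and 0.25 for all 37067 transcripts with enough counts. Enough was a mean of 10 counts in each assay, which asks for a higher level in the shallower TCP-seq. That can raise the median of all transcripts, and by how much was not tested. TOP2A had 21.4, 22.9, 24.1 and 28.9 CPM in WT TCP-seq, against 103 and 81.8 CPM in WT Ribo-seq. Its log2 ratio of -1.93 was the lowest of the 10, with BUB1B (-1.82) and CDC20 (-1.77) next. MKI67 was the only member with a ratio above 0, at 0.37, with 22.0, 29.6, 39.1 and 30.5 CPM in WT TCP-seq.

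The start regions of 4 members whose levels differed below are shown, since genes of this group are known for CCAAT boxes, bound by NF-Y, and for the cell cycle homology element TTTGAA. The windows are the 100 bases before the annotated start, from RefSeq on GRCh38.p14, in the direction of the gene. Capitals mark CCAAT and TTTGAA on either strand (ATTGG and TTCAAA on the other), which overlap in MKI67. For CDK1 the second annotated start is shown, and the 100 bases before the first start of that gene hold no match. Which of its starts belongs to the transcript read here was not checked. In TOP2A the TTTGAA matches lie outside the window shown.
KIF11 (chr10:92593030-92593129, + strand): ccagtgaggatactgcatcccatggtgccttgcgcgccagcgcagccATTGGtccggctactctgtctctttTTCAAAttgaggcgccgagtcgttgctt
CDK1 (chr10:60778378-60778477, + strand): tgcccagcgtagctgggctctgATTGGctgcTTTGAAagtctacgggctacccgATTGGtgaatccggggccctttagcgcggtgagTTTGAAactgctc
TOP2A (chr17:40417897-40417996, - strand): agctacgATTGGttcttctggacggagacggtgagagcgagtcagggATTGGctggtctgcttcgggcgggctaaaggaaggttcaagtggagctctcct
MKI67 (chr10:128126424-128126523, - strand): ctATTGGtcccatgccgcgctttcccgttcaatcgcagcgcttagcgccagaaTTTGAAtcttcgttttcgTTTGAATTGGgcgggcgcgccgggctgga
In the 250 bases before the start, CCAAT was found on either strand in 9 of the 10 genes (all but BUB1B), against 32.0% of 35114 windows of that length. TTTGAA was found in 7 of the 10 genes and both in 6, against 13.3% and 4.69% of all windows. A match is a description of the letters and not evidence of a bound site.

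MCTS1 KO cells had less KIF11 mRNA than WT cells, and smaller differences in 4 other members. KIF11, the kinesin Eg5 that pushes spindle poles apart, stood at 26.1 and 23.9 CPM in MCTS1 KO #1 and at 21.0 and 21.3 CPM in MCTS1 KO #2, against 30.3 and 31.4 CPM in WT. All 4 KO libraries lay below both WT libraries, with a log2 change of -0.42 ± 0.04 (SE, 4 KO and 2 WT libraries; edgeR quasi-likelihood test, adjusted p = 7.7e-14). CDK1, the kinase of both cyclins, had 18.7 and 18.8 CPM in KO #1 and 16.2 and 16.7 CPM in KO #2, against 19.9 and 21.0 CPM in WT, again without overlap (log2 change -0.22 ± 0.04, edgeR adjusted p = 4.5e-05). The checkpoint kinase BUB1 and its partner BubR1 fell as well. BUB1 had 18.7, 17.2, 17.3 and 18.0 CPM in the 4 KO libraries, against 20.0 and 20.1 CPM in WT. BUB1B had 15.7, 14.2, 14.7 and 14.4 CPM in the KO libraries, against 16.5 and 16.5 CPM in WT. Their log2 changes were -0.17 ± 0.04 for BUB1 and -0.15 ± 0.05 for BUB1B (SE, edgeR adjusted p = 0.0022 and 0.0099).

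In all, 5 of the 10 members passed the threshold (adjusted p under 0.05), 4 lower and 1 higher, where 24.9% of all 131951 transcripts tested did. The filter let in transcripts from a count of about 10, and members had 994 or more counts in each RNA-seq library. Shares of all transcripts, here and below, are not matched for count, and the part of depth was not tested. The median log2 change was -0.07 over the members and -0.01 over all transcripts. The 1 higher was TOP2A, which untangles sister DNA, with 63.5 and 58.2 CPM in KO #1 and 45.9 and 46.5 CPM in KO #2, against 50.7 and 47.8 CPM in WT. Only KO #1 lay above WT, so its mean log2 change of 0.11 ± 0.04 (edgeR adjusted p = 0.018) does not describe KO #2. The cyclins CCNB1 (0.03 ± 0.04) and CCNA2 (-0.05 ± 0.04), PLK1 (-0.07 ± 0.04), CDC20 (-0.06 ± 0.04) and MKI67 (-0.03 ± 0.04) did not pass. KIF11, CDK1 and BUB1 held in all 6 fits that left out 1 library. BUB1B lost the threshold without either WT library and with DESeq2, and TOP2A in 4 of the 6 and with DESeq2.

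**Figure D1:**
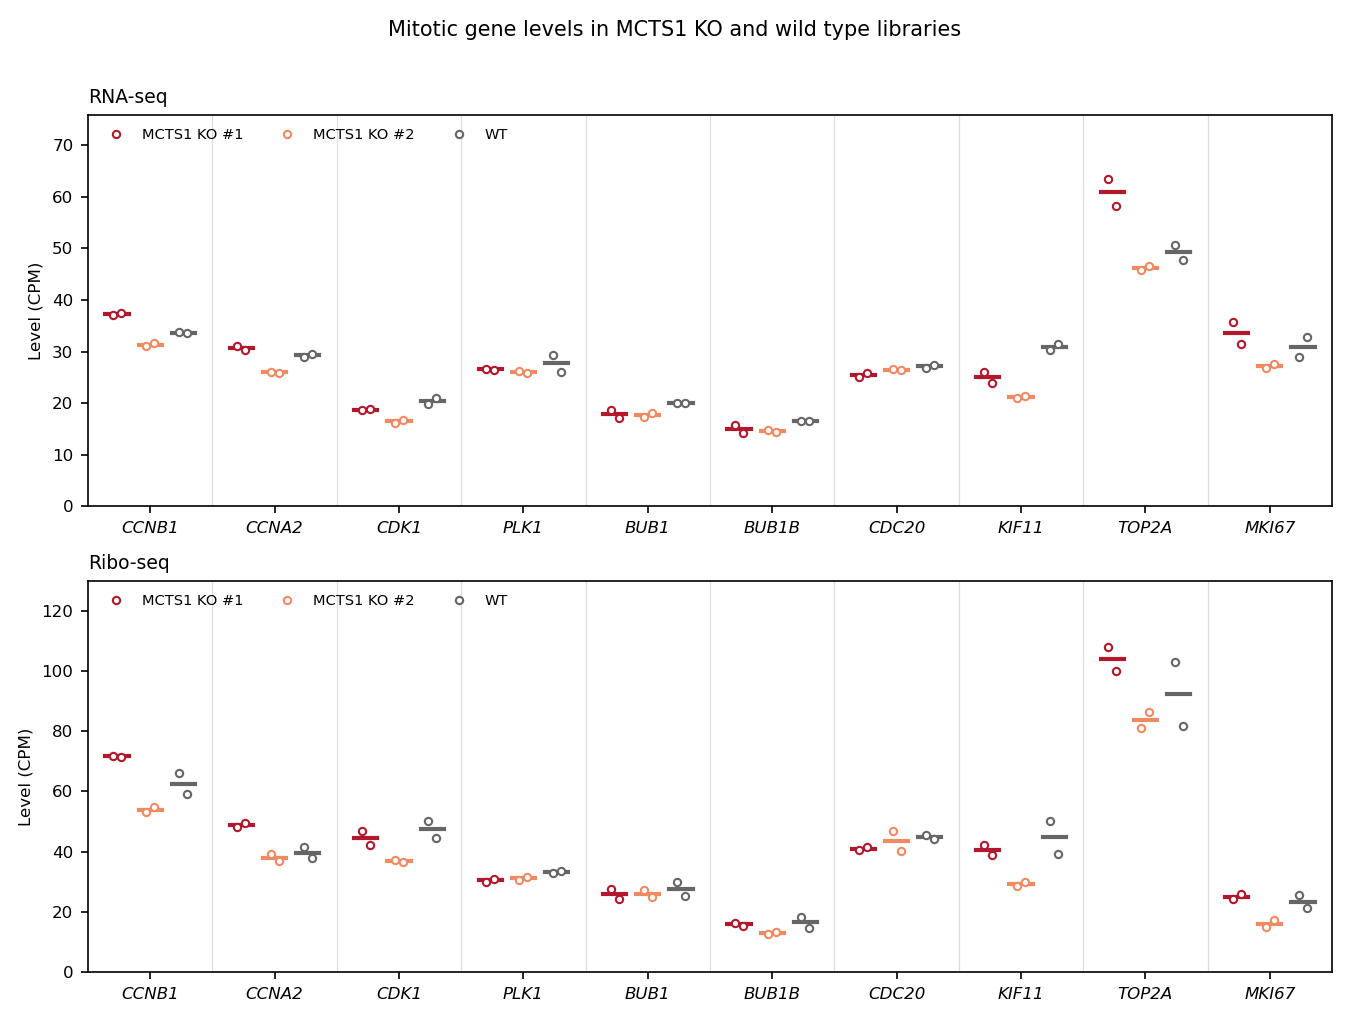
Level of each mitotic gene in CPM (vertical axis) in RNA-seq (above) and Ribo-seq (below), in MCTS1 KO #1, MCTS1 KO #2 and WT. Points are single libraries and lines are means of 2 libraries. KIF11 lies below WT in all 4 KO RNA-seq libraries, and MCTS1 KO #2 lies below KO #1 for most genes in Ribo-seq.

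Ribosome footprints followed the fall of KIF11. In Ribo-seq KIF11 stood at 42.3 and 38.8 CPM in MCTS1 KO #1 and at 28.6 and 30.1 CPM in MCTS1 KO #2, against 50.3 and 39.3 CPM in WT. KO #1 overlapped WT here, and KO #2 did not. The log2 change over both was -0.38 ± 0.09 (SE, edgeR adjusted p = 0.011), and KIF11 was the 1 member of 10 past the threshold, where 6.11% of all transcripts were. CDK1 (-0.23 ± 0.07), MKI67 (-0.23 ± 0.09), BUB1B (-0.20 ± 0.09), PLK1 (-0.12 ± 0.07), BUB1 (-0.10 ± 0.08), CDC20 (-0.09 ± 0.07), CCNB1 (-0.02 ± 0.07), TOP2A (0.00 ± 0.08) and CCNA2 (0.11 ± 0.07) did not pass. The call rested on single libraries: without WT library 1 the change was -0.19 with an adjusted p of 0.094, and it was also lost without either library of KO #2 (adjusted p = 0.090 and 0.066). The WT libraries stood apart, with summed levels of the 10 members of 463 and 402 CPM. Without WT library 2, 5 members passed.

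The change in footprints relative to mRNA, called translational efficiency here, passed for none of the 10 in the MCTS1 KO, where 0.872% of 108757 transcripts did. None had an unadjusted p under 0.05 in edgeR, and DESeq2 called none. The log2 changes ran from -0.21 ± 0.10 (MKI67) to 0.14 ± 0.08 (CCNA2), and KIF11 had 0.03 ± 0.10. Without WT Ribo-seq library 2, 2 members passed.

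The numbered MCTS1 KO lines also differed from each other in the mitotic genes. In RNA-seq 7 members passed against WT in KO #1 and 4 in KO #2, where 42.2% and 14.9% of all transcripts did. CCNB1 and TOP2A were higher in KO #1 than in WT, by 0.11 ± 0.04 (edgeR adjusted p = 0.027) and 0.27 ± 0.04, where KO #2 had -0.06 ± 0.04 and -0.05 ± 0.04. Set directly against each other, 6 of the 10 differed in RNA-seq, against 45.8% of all transcripts. TOP2A was higher in KO #1 than in KO #2 by 0.32 ± 0.04 on the log2 scale, MKI67 by 0.23 ± 0.05, CCNB1 by 0.17 ± 0.04, and CCNA2 and KIF11 by 0.16 each. CDC20 was lower in KO #1, by -0.14 ± 0.04.

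In Ribo-seq the KO lines differed in 6 members, against 18.6% of all transcripts, all higher in KO #1. MKI67, which coats mitotic chromosomes, had 24.4 and 25.9 CPM in KO #1, 15.0 and 17.4 CPM in KO #2, and 25.6 and 21.4 CPM in WT. KO #2 lay below the other groups without overlap, and the difference of KO #1 from KO #2 was 0.63 ± 0.10 (edgeR adjusted p = 0.00011). KIF11 differed by 0.46 ± 0.10, CCNB1 by 0.40 ± 0.08, CCNA2 by 0.35 ± 0.08, TOP2A by 0.30 ± 0.09 and CDK1 by 0.26 ± 0.08. Against WT, 1 member passed in KO #1 (CCNA2, 0.28 ± 0.08; 16.7% of all transcripts passed) and 3 in KO #2 (KIF11 at -0.61 ± 0.10, MKI67 at -0.54 ± 0.11 and CDK1 at -0.36 ± 0.09; 3.62% of all). MKI67 was also the 1 member whose translational efficiency differed between the lines, by 0.41 ± 0.12, against 6.27% of all transcripts. The libraries of KO #1 were the deepest of both assays, and their part in these differences was not tested.

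After siRNA against DENR, 4 mitotic mRNAs were lower than with siControl, with values that depended on the siRNA. TOP2A had 33.0 and 40.9 CPM with siDENR #1 and 30.4 and 33.7 CPM with siDENR #2, against 40.8 and 41.8 CPM with siControl. Library 2 of siDENR #1 reached the siControl range, and the log2 change was -0.29 ± 0.07 (SE, edgeR adjusted p = 0.00064). CDK1 had 12.1 and 15.8 CPM with siDENR #1 and 20.5 and 21.3 CPM with siDENR #2, against 20.0 and 19.1 CPM with siControl. CCNA2 had 18.6 and 22.1 CPM with siDENR #1 and 29.0 and 29.5 CPM with siDENR #2, against 27.3 and 27.3 CPM with siControl. For both genes siDENR #1 lay below siControl and siDENR #2 above it. The mean log2 changes were -0.22 ± 0.07 for CDK1 and -0.19 ± 0.07 for CCNA2 (edgeR adjusted p = 0.024 and 0.034). KIF11 was lower by -0.19 ± 0.07 (edgeR adjusted p = 0.037), with 17.8 and 22.0 CPM with siDENR #1, 23.1 and 24.2 CPM with siDENR #2 and 24.6 and 24.2 CPM with siControl.

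These 4 of 10 compare with 23.1% of 131311 transcripts tested. BUB1B (-0.16 ± 0.08), BUB1 (-0.09 ± 0.07), CDC20 (-0.06 ± 0.07), CCNB1 (0.04 ± 0.06), MKI67 (0.10 ± 0.06) and PLK1 (0.11 ± 0.06) did not pass. With library totals alone as scaling, or with DESeq2, TOP2A was the 1 member left. Library 1 of siDENR #1 was the lowest of the 6 libraries for 5 of the 10 members, with a summed level of 224 CPM against 248 to 277 CPM in the others. Without it 1 member passed, and without library 2 of siDENR #1, 7 did. Leaving out siControl library 1 or 2 gave 1 and 0 members, and leaving out siDENR #2 library 1 or 2 gave 1 and 2.

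**Figure D2:**
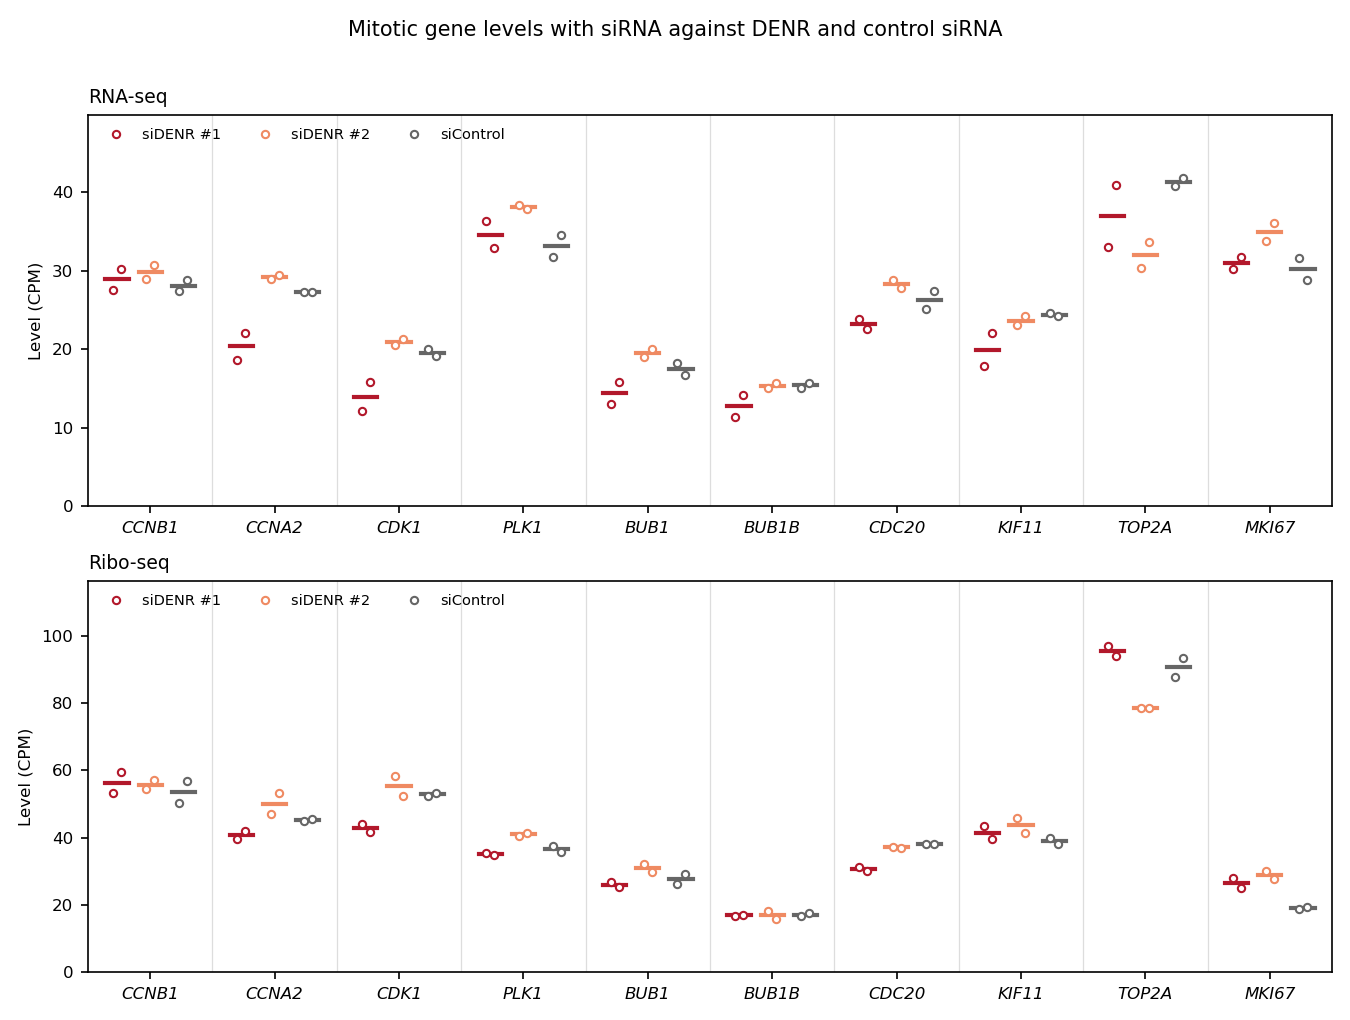
Level of each mitotic gene in CPM (vertical axis) in RNA-seq (above) and Ribo-seq (below), with siDENR #1, siDENR #2 and siControl. Points are single libraries and lines are means of 2 libraries. MKI67 footprints lie above siControl in all 4 siDENR libraries, and CDK1 and CCNA2 mRNA lie below it with siDENR #1 alone.

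The siRNAs were set against each other in the same fit. With siDENR #1, 5 members passed against siControl, all lower (26.0% of all transcripts passed): CDK1 at -0.48 ± 0.09, CCNA2 at -0.42 ± 0.08, KIF11 at -0.29 ± 0.08, BUB1 at -0.28 ± 0.09 and BUB1B at -0.26 ± 0.09. With siDENR #2 the 1 member was TOP2A at -0.42 ± 0.08 (19.2% of all). Directly compared, 5 of the 10 differed in RNA-seq, against 24.9% of all transcripts. CDK1 (-0.53 ± 0.09), CCNA2 (-0.47 ± 0.08), BUB1 (-0.38 ± 0.09) and CDC20 (-0.23 ± 0.08) were lower with siDENR #1 than with siDENR #2, and TOP2A (0.26 ± 0.08) was higher. In Ribo-seq 6 of the 10 differed, against 11.1% of all transcripts. CDK1 (-0.38 ± 0.07), CCNA2 (-0.30 ± 0.07), CDC20 (-0.28 ± 0.08), BUB1 (-0.26 ± 0.09) and PLK1 (-0.23 ± 0.08) were lower with siDENR #1, and TOP2A (0.27 ± 0.06) was higher.

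MKI67 gained footprints with both DENR siRNAs while its mRNA level did not pass the test. In Ribo-seq it stood at 28.0 and 25.1 CPM with siDENR #1 and at 30.1 and 27.9 CPM with siDENR #2, against 18.8 and 19.4 CPM with siControl. All 4 siDENR libraries lay above both siControl libraries, with a log2 change of 0.52 ± 0.08 (SE, edgeR adjusted p = 1.9e-06), a 1.43-fold level. The call held in all 11 alternatives run, with adjusted p-values of 1.2e-08 to 0.00035. In RNA-seq MKI67 had 30.2 and 31.7 CPM with siDENR #1 and 33.8 and 36.1 CPM with siDENR #2, against 31.6 and 28.8 CPM with siControl, with overlap (log2 change 0.10 ± 0.06, edgeR adjusted p = 0.26). Translational efficiency was higher by 0.41 ± 0.10 (edgeR adjusted p = 0.046), and MKI67 was the 1 member past the threshold, where 0.369% of 102515 transcripts were. That call was lost without any 1 of the 4 siControl libraries, without either RNA-seq library or Ribo-seq library 1 of siDENR #2, and without Ribo-seq library 1 of siDENR #1, with adjusted p-values up to 0.44. The efficiency of the other members lay between -0.14 ± 0.09 (CDC20) and 0.29 ± 0.10 (KIF11). For MKI67 with each siRNA alone the change in efficiency was 0.40 ± 0.12 for siDENR #1 and 0.43 ± 0.12 for siDENR #2.

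Among the other members, CDC20 lost footprints after siDENR. It had 31.4 and 30.1 CPM with siDENR #1 and 37.2 and 37.1 CPM with siDENR #2, against 38.2 and 38.3 CPM with siControl (log2 change -0.20 ± 0.07, edgeR adjusted p = 0.034). It held in 4 of 11 alternatives and was lost without either siControl library or library 2 of either siRNA, and with siDENR #2 alone the change was -0.06 ± 0.08. MKI67 and CDC20 make 2 of 10 members past the threshold in Ribo-seq, against 10.4% of 108890 transcripts. The 8 others lay between -0.14 ± 0.06 (CDK1) and 0.11 ± 0.06 (KIF11). With siDENR #1 alone 3 passed (MKI67, CDC20 and CDK1 at -0.33 ± 0.07; 10.6% of all) and with siDENR #2 alone 2 (MKI67 and TOP2A at -0.22 ± 0.06; 9.21% of all). KIF11 had 43.4, 39.6, 46.0 and 41.5 CPM in the siDENR Ribo-seq libraries, against 40.0 and 38.2 CPM with siControl. Its footprints did not pass (0.11 ± 0.06), nor did its translational efficiency (0.29 ± 0.10, edgeR adjusted p = 0.26).

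Since MCTS1 and DENR work as a dimer, the response to the MCTS1 KO was set against the response to siDENR in 1 fit per assay. The experiments share no library. The gene targeted, knockout or siRNA, and the control differ together between them and cannot be told apart. In RNA-seq the responses differed for 2 of the 10 members, which is near the 20.2% of all transcripts. TOP2A had 0.11 ± 0.04 in the MCTS1 KO (0.27 in KO #1 and -0.05 in KO #2) and -0.29 ± 0.07 after siDENR, a difference of 0.40 ± 0.08 (edgeR adjusted p = 0.00035). KIF11 differed by -0.23 ± 0.08, with the larger fall in the MCTS1 KO (edgeR adjusted p = 0.045), a call that held in 2 of 12 fits with 1 library left out. In Ribo-seq 2 of the 10 differed, against 7.50% of all transcripts. MKI67 had -0.23 ± 0.09 over both MCTS1 KO lines and 0.52 ± 0.08 after siDENR, a difference of -0.74 ± 0.12 (edgeR adjusted p = 5.1e-05). The first value did not pass (edgeR adjusted p = 0.13), and the lines had opposite signs, with 0.09 ± 0.10 in KO #1 and -0.54 ± 0.11 in KO #2. KIF11 changed by -0.38 ± 0.09 in the MCTS1 KO and by 0.11 ± 0.06 after siDENR, a difference of -0.48 ± 0.11 (edgeR adjusted p = 0.0058), which was lost without WT library 1 or siControl library 2. TOP2A in RNA-seq and MKI67 in Ribo-seq held in all 17 alternatives, each of which took both KO lines together. The other members lay between -0.17 ± 0.08 (PLK1) and 0.14 ± 0.08 (CCNA2) in RNA-seq and between -0.16 ± 0.13 (BUB1B) and 0.14 ± 0.10 (CCNA2) in Ribo-seq.

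In TCP-seq of eIF2D KO cells, cyclin B1 was the member whose mRNA was recovered more often. CCNB1 had 53.5 and 47.2 CPM in eIF2D KO #1 and 41.4 and 28.2 CPM in eIF2D KO #2, against 30.2 and 25.0 CPM in WT libraries 1 and 2. The second library of KO #2 lay within the WT range. The log2 change was 0.55 ± 0.15 (SE, edgeR adjusted p = 0.038), and this was 1 of 10 members, against 1.63% of 50991 transcripts tested. It was lost without WT library 1 or 2, without library 1 of either KO line, and with DESeq2 (adjusted p = 0.25). With WT libraries 3 and 4 as control instead, 3 members passed, and the share of all transcripts there is not given. They were CCNB1, BUB1B (higher, edgeR adjusted p = 0.017) and KIF11 (lower, edgeR adjusted p = 0.034). With WT libraries 1 and 2, TOP2A (0.45 ± 0.17), BUB1B (0.44 ± 0.31), PLK1 (0.38 ± 0.19), BUB1 (0.31 ± 0.27), CDC20 (0.29 ± 0.21), CCNA2 (0.11 ± 0.17), MKI67 (0.11 ± 0.17), CDK1 (0.04 ± 0.15) and KIF11 (-0.30 ± 0.18) did not pass.

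The eIF2D KO lines differed. TOP2A had 47.0 and 37.7 CPM in KO #1 and 26.1 and 19.2 CPM in KO #2, against 21.4 and 22.9 CPM in WT libraries 1 and 2. KO #1 lay above all WT libraries and KO #2 did not. Against WT, KO #1 passed for CCNB1 (0.73 ± 0.17) and TOP2A (0.82 ± 0.19), where 2.02% of all transcripts passed. KO #2 passed for no member in edgeR (2 had an unadjusted p under 0.05), where 3.29% of all transcripts passed. Set against each other, 3 members were higher in KO #1, against 8.97% of all transcripts: BUB1 by 0.85 ± 0.27, TOP2A by 0.74 ± 0.17 and KIF11 by 0.60 ± 0.21. Library 1 of KO #1 was the highest of these KO and WT libraries for 7 of the 10 members. The summed level of the 10 was 314 and 275 CPM in KO #1 and 212 and 199 CPM in KO #2, against 198 to 235 CPM in WT. The part of that library-wide level in each gene's change was not tested.

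**Figure D3:**
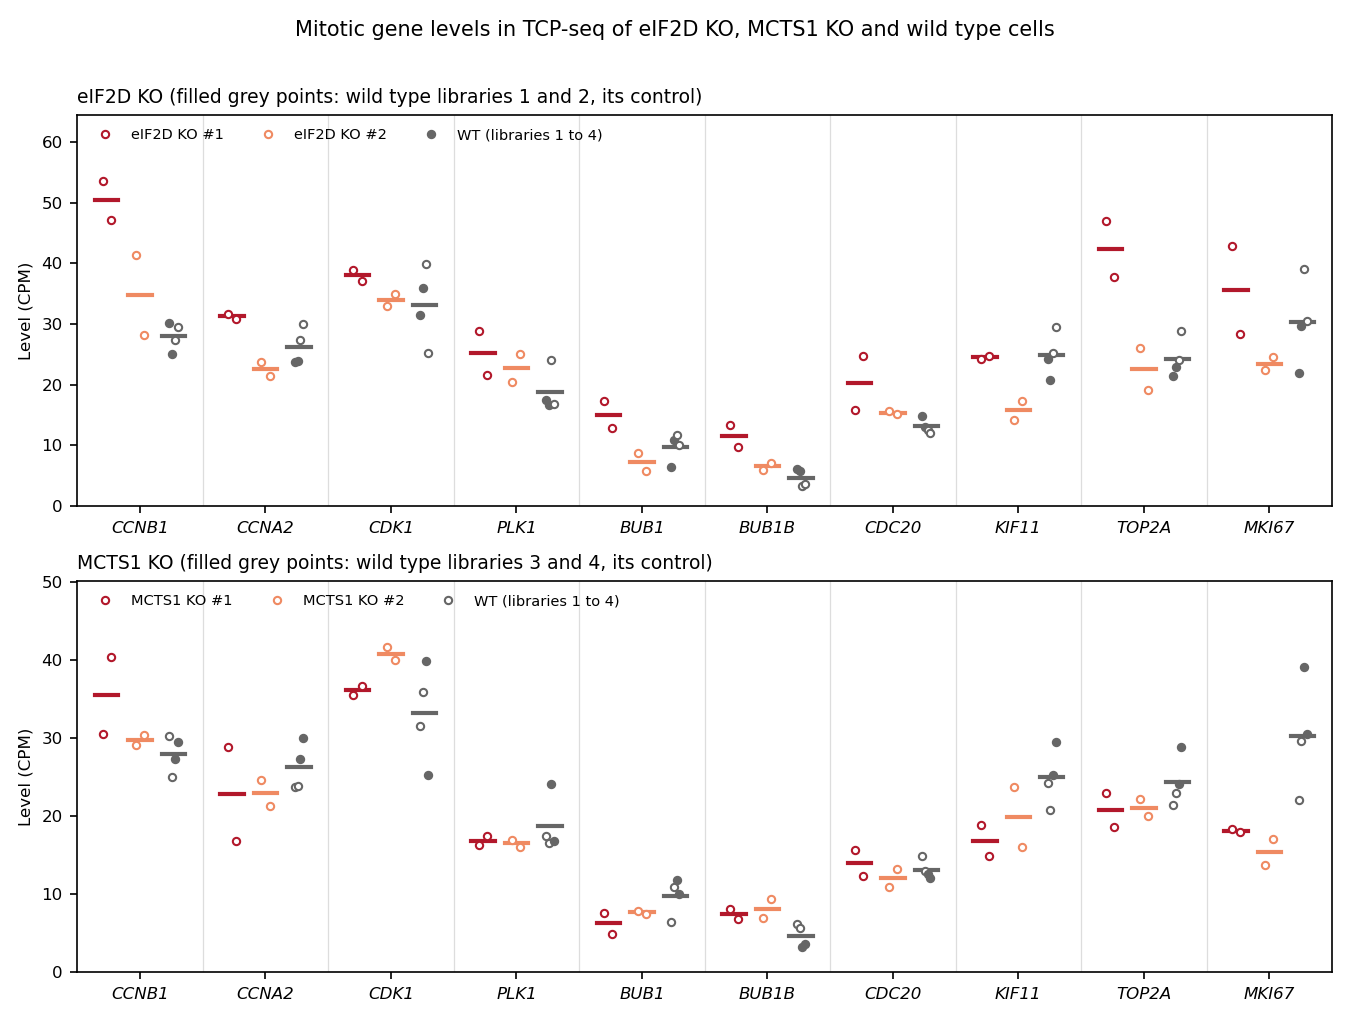
Level of each mitotic gene in CPM (vertical axis) in TCP-seq libraries of eIF2D KO (above) and MCTS1 KO (below), each beside the 4 WT libraries. Points are single libraries and lines are group means, and filled grey points are the WT libraries that served as control. CCNB1 and TOP2A are highest in eIF2D KO #1, and MKI67 is below all WT libraries in all 4 MCTS1 KO libraries.

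MCTS1 KO cells had less MKI67 in TCP-seq. MKI67 stood at 18.3 and 18.0 CPM in MCTS1 KO #1 and at 13.7 and 17.1 CPM in MCTS1 KO #2, against 39.1 and 30.5 CPM in WT libraries 3 and 4. All 4 KO libraries also lay below WT libraries 1 and 2, at 22.0 and 29.6 CPM. The log2 change was -1.11 ± 0.18 (SE, edgeR adjusted p = 1.3e-06), a 0.463-fold level, and it held in all 18 alternatives. With WT libraries 1 and 2 as control it was -0.62 (adjusted p = 0.030), and with all 4 it was -0.88. KIF11 had 18.8, 14.9, 23.7 and 16.1 CPM in the KO libraries, against 25.3 and 29.5 CPM in WT libraries 3 and 4 (-0.61 ± 0.19, edgeR adjusted p = 0.019). BUB1B had 8.13, 6.84, 6.98 and 9.34 CPM in the KO libraries, from 11 to 36 counts, against 3.26 and 3.68 CPM in WT libraries 3 and 4, from 8 and 7 counts (1.14 ± 0.39, edgeR adjusted p = 0.033).

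The calls of KIF11 and BUB1B depended on the control. Against the same WT libraries 3 and 4, the eIF2D KO passed for both genes too, with KIF11 lower and BUB1B higher. With WT libraries 1 and 2 KIF11 changed by -0.36 (adjusted p = 0.29) and BUB1B by 0.36 (adjusted p = 0.58), and with all 4 WT libraries neither passed. Both were also lost without WT library 3 or 4 and without library 2 of KO #2, KIF11 without library 2 of KO #1, and BUB1B without library 1 of KO #1. The 3 of 10 members past the threshold compare with 13.8% of all transcripts, and with all 4 WT libraries MKI67 alone was left. BUB1 (-0.69 ± 0.29), TOP2A (-0.37 ± 0.19), PLK1 (-0.36 ± 0.21), CCNA2 (-0.35 ± 0.18), CDC20 (0.04 ± 0.25), CCNB1 (0.15 ± 0.17) and CDK1 (0.16 ± 0.16) did not pass. In KO #1 the 1 member was MKI67 (-0.96 ± 0.23; 4.91% of all), and in KO #2 there were 3 (MKI67 at -1.26 ± 0.20, BUB1B at 1.16 ± 0.40 and KIF11 at -0.55 ± 0.21; 18.9% of all). None of the 10 differed between the KO lines in edgeR, none with an unadjusted p under 0.05, where 3.48% of all transcripts differed.

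Small subunits selected through eIF2D carried more MKI67 and TOP2A than those selected through MCTS1 or DENR. MKI67 had 43.3 and 48.0 CPM with eIF2D-V5 (44 and 124 counts), against 16.9 and 6.43 CPM with MCTS1-V5 (6 and 4 counts) and 7.94 and 12.4 CPM with DENR-V5 (5 and 6 counts). The eIF2D-V5 libraries lay above the others without overlap, with a log2 difference of 2.01 ± 0.39 (SE, 2 against 4 libraries; edgeR adjusted p = 0.0033). TOP2A had 53.1 and 60 CPM with eIF2D-V5, against 22.5 and 25.7 CPM with MCTS1-V5 and 19.1 and 10.4 CPM with DENR-V5. Its difference was 1.41 ± 0.32 (edgeR adjusted p = 0.0078). Both genes held in all 11 alternatives. BUB1 had too few counts for this fit, and these are 2 of the 9 members tested, against 22.1% of 12135 transcripts. MKI67 and BUB1B passed the filter on low counts only through their eIF2D-V5 libraries, where they are high. Their entry into the fit therefore depended on the difference tested, and the 22.1% comes from transcripts filtered the same way. MKI67 also passed in the fit with no such filter. Libraries of the same replicate number deviated together in these selections, but the main fit above held no block for that number. With the number as a block MKI67 had 2.03 ± 0.35 and TOP2A 1.42 ± 0.30. CCNB1 also passed then (0.79 ± 0.28, edgeR adjusted p = 0.018), which makes 3 of 9.

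The remaining members tested did not pass without that block. CCNB1 had 46.2 and 65.0 CPM with eIF2D-V5, against 36.5 and 22.5 CPM with MCTS1-V5 and 25.4 and 37.3 CPM with DENR-V5 (0.77 ± 0.33, edgeR adjusted p = 0.11). BUB1B (0.93 ± 0.46), CCNA2 (0.62 ± 0.37), CDC20 (0.56 ± 0.46), KIF11 (0.06 ± 0.38), PLK1 (-0.09 ± 0.35) and CDK1 (-0.43 ± 0.36) lay on either side of 0. In CPM, CCNB1, BUB1B and CCNA2 lay above the other selections in both eIF2D-V5 libraries, as MKI67 and TOP2A did. So did BUB1, the member not tested, with 12.8 and 22.1 CPM against 2.07 to 6.43 CPM. How many of all transcripts lay apart in this way was not counted, so this is not a trait of the members. CPM are scaled by library totals. Scaled by library totals alone, the median of all transcripts moved to 0.38 on the log2 scale, from 0.03 with TMM, and 3 members passed. MCTS1-V5 and DENR-V5 were not told apart: in edgeR no transcript of 12135 passed (0.00%), 824 had an unadjusted p under 0.05, and MKI67 differed by -0.04 ± 0.67. With 1 to 28 counts per member in those 4 libraries, a difference within such errors was not detectable at this depth.

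**Figure D4:**
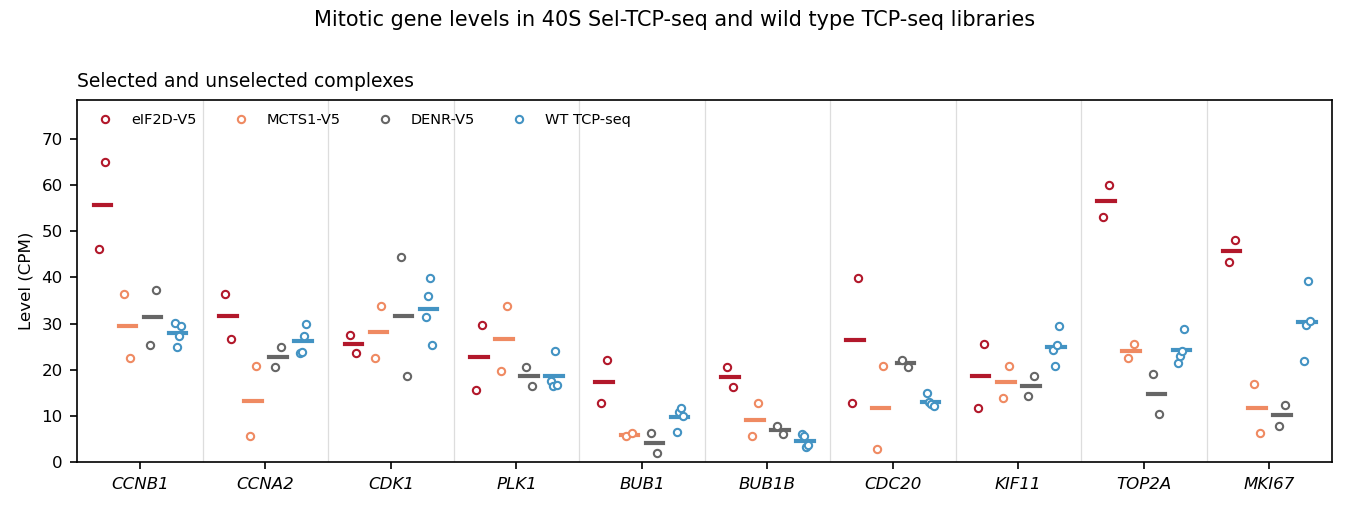
Level of each mitotic gene in CPM (vertical axis) in 40S Sel-TCP-seq through eIF2D-V5, MCTS1-V5 and DENR-V5 (2 libraries each), beside the 4 WT TCP-seq libraries. Points are single libraries and lines are group means. MKI67, TOP2A, CCNB1, CCNA2, BUB1 and BUB1B are above the other selections in both eIF2D-V5 libraries. How many of all transcripts are so too was not counted, and of these genes MKI67 and TOP2A alone passed the main test.

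Selected complexes were also set against the unselected TCP-seq of WT cells, where the assay and the tagged cells differ together and cannot be told apart. With eIF2D-V5, 5 of 10 members were higher than in WT TCP-seq, against 36.0% of 35013 transcripts passing in either direction. BUB1B had 20.6 and 16.3 CPM with eIF2D-V5, against 6.16, 5.72, 3.26 and 3.68 CPM in WT TCP-seq (1.87 ± 0.34, edgeR adjusted p = 1e-05). TOP2A was higher by 1.22 ± 0.23, CDC20 by 1.12 ± 0.29, CCNB1 by 1.00 ± 0.23 and BUB1 by 0.93 ± 0.31. CDC20 had 12.8 and 39.9 CPM with eIF2D-V5, against 12.1 to 14.9 CPM in WT TCP-seq, so library 1 lay within the WT range. BUB1 had 12.8 and 22.1 CPM with eIF2D-V5, against 6.49 to 11.8 CPM in WT TCP-seq, with library 1 just above the highest WT library. MKI67 did not pass with eIF2D-V5 (0.59 ± 0.25, edgeR adjusted p = 0.051). For each selection alone no fit with a library left out was run. With MCTS1-V5 and with DENR-V5 the 1 member was MKI67, which was lower by -1.38 ± 0.46 and -1.39 ± 0.44, where 14.8% and 10.8% of all transcripts passed. Over the 3 selections together 3 members passed, against 30.0% of all transcripts: BUB1B (1.30 ± 0.37), CDC20 (0.75 ± 0.28) and MKI67 (-0.73 ± 0.26). The others lay between -0.34 ± 0.24 (KIF11) and 0.50 ± 0.21 (CCNB1). Against WT libraries 1 and 2 alone none passed in edgeR, and none did without library 2 of MCTS1-V5, where CDC20 came to -0.03, or without library 1 of DENR-V5. Without WT library 2, 3 or 4, 1 member passed. The median of all transcripts was -0.12 on the log2 scale in this comparison and -0.28 with library totals alone.

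**Figure D5:**
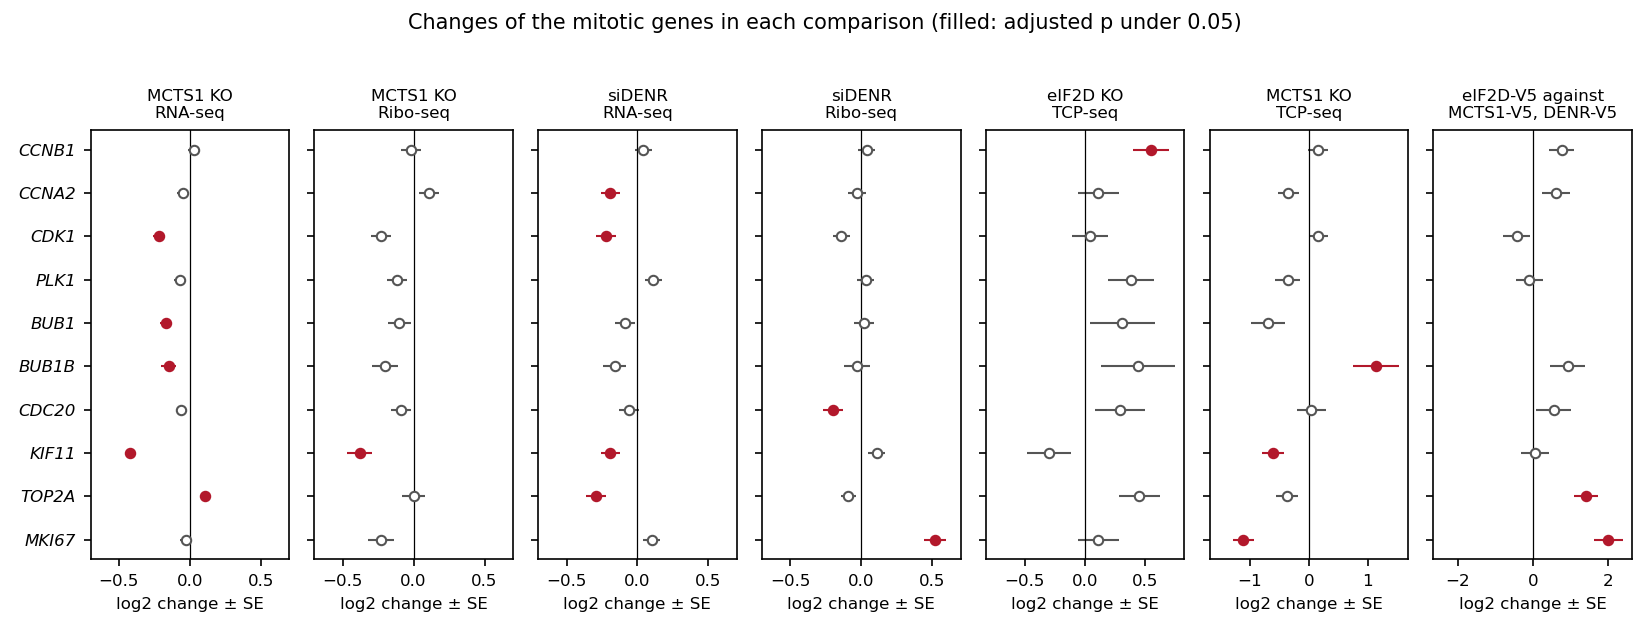
Log2 change of each mitotic gene (horizontal axis) with its SE in 7 comparisons, KO, siDENR or eIF2D-V5 over its control. Filled points passed an adjusted p under 0.05. KIF11 is lower in the MCTS1 KO in RNA-seq, Ribo-seq and TCP-seq, and MKI67 is higher after siDENR in Ribo-seq and lower in MCTS1 KO TCP-seq. The horizontal scales differ, and BUB1 has no value in the last panel.

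Read by gene, KIF11 and MKI67 each passed in several assays. KIF11 passed as lower in the MCTS1 KO in RNA-seq (-0.42), Ribo-seq (-0.38) and TCP-seq (-0.61), where the Ribo-seq and TCP-seq calls rested on single libraries or on the control. It also passed as lower after siDENR in RNA-seq (-0.19). That call was lost with library totals alone as scaling and with DESeq2, and KIF11 passed with siDENR #1 but not with siDENR #2. MKI67 passed as higher in Ribo-seq after siDENR (0.52) and as lower in TCP-seq of the MCTS1 KO (-1.11). With eIF2D-V5 against the other selections MKI67 had 2.01. It entered that fit only through its high eIF2D-V5 libraries, so that call is no separate support. Against WT TCP-seq it passed as lower over the 3 selections (-0.73), with MCTS1-V5 (-1.38) and with DENR-V5 (-1.39), and with eIF2D-V5 it had 0.59 and did not pass. PLK1, a kinase of mitotic entry and spindle assembly, passed in none of the comparisons over both KO lines or siRNAs, with changes from -0.36 ± 0.21 to 0.38 ± 0.19. Among the same comparisons CCNB1 passed in TCP-seq of the eIF2D KO, and its mRNA and footprints lay within 0.04 of 0 on the log2 scale as means over both lines or siRNAs. Those means hide MCTS1 KO lines on either side of WT, with 0.18 ± 0.08 in KO #1 and -0.22 ± 0.08 in KO #2 in Ribo-seq.

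Members also resembled one another unequally across libraries. Over the 12 RNA-seq libraries, CDK1 and BUB1 had the highest Pearson r of log2 CPM among 45 pairs (0.92, Spearman's rho 0.83). BUB1 with BUB1B (0.91, rho 0.76) and CCNA2 with CDK1 (0.91, rho 0.62) followed. Over the 12 Ribo-seq libraries it was BUB1B with KIF11 (0.90, Spearman's rho 0.69). The median over pairs was 0.38 and 0.37. Some members ran against each other: PLK1 with TOP2A was the lowest pair in both assays, at -0.86 in RNA-seq and -0.55 in Ribo-seq. In RNA-seq the experiments stood apart for both genes. PLK1 had 25.8 to 29.4 CPM in the MCTS1 KO and WT libraries, and 31.7 to 38.4 CPM in the siRNA libraries. TOP2A had 45.9 to 63.5 CPM and 30.4 to 41.8 CPM in the same sets, so that r includes a difference between experiments. These values are a description over 6 groups of 2 libraries from 2 experiments, not over independent samples.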

How the data were processed

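HEK293T libraries of 4 assays (RNA-seq, Ribo-seq, TCP-seq, Sel-TCP-seq) were analysed, 42 of the 52 samples in the labels; the other 10 TCP-seq samples, labelled empty or with eIF2D forms overexpressed, were not analysed here. The authors deposited whole-number counts per versioned transcript identifier. The submitters' processing notes name STAR, cutadapt, Subread and featureCounts, and the builds GRCh38.p13 and hg38. For reads over several transcripts, and for strand, the counting rule was not stated in the sources used here. Of 218062 identifiers with a count, 190420 had distinct profiles, so the counts of some identifiers cannot be told apart: 1 to 9 other identifiers followed each member (correlation of replicate deviations over 0.95), and none of the members had an identical profile.

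Groups came from the sample titles. The members, their gene names and the comparisons were chosen with earlier results of these data known. In each main comparison all 10 members are named or covered by a stated range. Lists of other mitotic genes, of G1 and S phase genes and of the targeted factors had been planned, but no table pairing transcripts with genes was used, so they were not tested. Counts were tested over all transcripts with edgeR 4.0.16 in R 4.3.3 (TMM, filterByExpr with a minimum count of 10, robust quasi-likelihood fit, Benjamini-Hochberg adjusted p under 0.05), each group a coefficient and a comparison the mean of both KO lines, siRNAs or reference selections. Each SE is the size of the log2 change divided by the root of its F statistic. Such p-values leave out the spread between lines or siRNAs. Each fit also drew a transcript's own scatter toward that of transcripts of similar level. The median prior degrees of freedom were 12.28 in the fit of the selections and 209 in TCP-seq, against 3 and 6 residual ones. Translational efficiency was tested as a group-by-assay interaction. The TCP-seq libraries shared 1 model. DESeq2 1.42.0, other scalings, no filter, a replicate block, other WT controls and leaving out each library were tried. In Sel-TCP-seq, differences between replicates 1 and 2 correlated by 0.25 to 0.70 over the 3 pairs of groups. The main Sel-TCP-seq fit still held no replicate block, which was run there as an alternative. Replicates differed by 1.12 to 2.91 times counting noise, so none was taken for a copy. Promoter windows came from RefSeq (GRCh38.p14), and all 10 gene symbols matched.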

Additional observations from a re-analysis of the deposited data

Results flagged for a closer look

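PLK1 in WT TCP-seq had 1 library apart from the other 3, at 24.1 CPM against 16.6 to 17.5 CPM. A spread test of this kind marks about 5% of groups by chance.

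The numbered MCTS1 KO lines differed from each other (KO #1 minus KO #2, log2, edgeR adjusted p under 0.05). In RNA-seq the differences were 0.17 for CCNB1, 0.16 for CCNA2, -0.14 for CDC20, 0.16 for KIF11, 0.32 for TOP2A and 0.23 for MKI67. In Ribo-seq they were 0.40 for CCNB1, 0.35 for CCNA2, 0.26 for CDK1, 0.46 for KIF11, 0.30 for TOP2A and 0.63 for MKI67. In translational efficiency MKI67 differed by 0.41.

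The numbered DENR siRNAs differed too (siDENR #1 minus siDENR #2). In RNA-seq the differences were -0.47 for CCNA2, -0.53 for CDK1, -0.38 for BUB1, -0.23 for CDC20 and 0.26 for TOP2A. In Ribo-seq they were -0.30 for CCNA2, -0.38 for CDK1, -0.23 for PLK1, -0.26 for BUB1, -0.28 for CDC20 and 0.27 for TOP2A.

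In TCP-seq the eIF2D KO lines differed (KO #1 minus KO #2) by 0.85 for BUB1, 0.60 for KIF11 and 0.74 for TOP2A. The MCTS1 KO response minus the siDENR response was -0.23 for KIF11 and 0.40 for TOP2A in RNA-seq, and -0.48 for KIF11 and -0.74 for MKI67 in Ribo-seq.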

How the results depend on the processing

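Of 1753 values of single members under an alternative, 1526 kept their direction and their side of the threshold, 107 lost and 25 gained the threshold, and 94 that never passed changed sign. In 1 case a called value turned: CDC20 in Sel-TCP-seq against WT TCP-seq, which ran from -0.03 (without library 2 of MCTS1-V5) to 0.90 (without library 1 of MCTS1-V5) with 1 library left out. The cause was not tested for any of these. Counts of members under an alternative, above and below, are given without the share of all transcripts past the threshold in that fit. A change in such a count is therefore not evidence of a change particular to the members.

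Members past the threshold, with 1 library left out, numbered 4 to 5 (MCTS1 KO RNA-seq, 5 with all libraries), 0 to 5 (MCTS1 KO Ribo-seq, 1), 0 to 7 (siDENR RNA-seq, 4) and 1 to 3 (siDENR Ribo-seq, 2). They numbered 0 to 2 for translational efficiency in the MCTS1 KO (0) and 0 to 2 after siDENR (1). They numbered 0 to 1 in eIF2D KO TCP-seq (1), 1 to 3 in MCTS1 KO TCP-seq (3), 2 to 4 between selections (2) and 0 to 3 for selections against WT TCP-seq (3). The differences between responses gave 1 to 3 in RNA-seq (2) and 1 to 2 in Ribo-seq (2).

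DESeq2 gave 3 in MCTS1 KO RNA-seq, 1 in each siDENR assay, 0 in eIF2D KO TCP-seq, 1 in MCTS1 KO TCP-seq, 1 for selections against WT TCP-seq and 1 for the RNA-seq difference between responses. Library totals alone gave 1 in siDENR RNA-seq, 1 in siDENR Ribo-seq, 3 between selections, 2 for selections against WT TCP-seq and 3 for the RNA-seq difference between responses. No filter on low counts gave 1 in siDENR Ribo-seq, 0 for siDENR translational efficiency, 0 in eIF2D KO TCP-seq, 1 in MCTS1 KO TCP-seq, 3 between selections and 2 for selections against WT TCP-seq. WT libraries 3 and 4 as control gave 3 in eIF2D KO TCP-seq. WT libraries 1 and 2, or all 4, gave 1 in MCTS1 KO TCP-seq. Selections gave 0 against WT libraries 1 and 2 and 2 against libraries 3 and 4.

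Replicate numbers are shared between groups. Outside Sel-TCP-seq, differences between replicates 1 and 2 correlated by -0.16 to 0.17 over 15 pairs of groups, so there the numbers were not taken to pair libraries. The correlation was higher in Sel-TCP-seq, but the main fit there held no block either. A fit with the replicate number as a block gave 2 in MCTS1 KO Ribo-seq, 0 for siDENR translational efficiency, 0 in eIF2D KO TCP-seq, 3 between selections, 0 for selections against WT TCP-seq, 5 and 4 in RNA-seq of the MCTS1 KO and siDENR, 2 in siDENR Ribo-seq, 0 for MCTS1 KO translational efficiency and 2 for each difference between responses. No paired analysis was possible for MCTS1 KO TCP-seq because its libraries share no numbers with WT libraries 3 and 4.

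With 1 library left in a group, that library was assumed to vary like the others. Depth limits TCP-seq and Sel-TCP-seq most, where a member had as few as 7 and 1 counts.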
